A study of Mus musculus with 66 samples.

Results

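The genes described here are 10 immediate early genes, *Fos*, *Fosb*, *Fosl2*, *Junb*, *Egr1*, *Arc*, *Npas4*, *Nr4a1*, *Nr4a3* and *Dusp1*, of 45706 gene identifiers measured. They were chosen by name as genes induced by activity, and selected with their levels in these libraries already seen, so that their levels and differences are given as a description and the adjusted p-values, which come from fits over every tested gene, support no choice of these genes. All 10 were matched to 1 identifier each, and all 10 passed the filter on low counts in each of the 20 comparisons. RNA sequencing covered 66 libraries in 20 groups of mice homozygous for a spontaneous *Rorb* mutation or of the control strains C57BL/6J and DBA/1J. Brain hemi-sections and spinal cords came from 24 animals: 3 C57BL/6J and 3 DBA/1J controls, and mutants named Rorb h1/h1 (3 animals), Rorb h2/h2 (4 animals), Rorb h3/h3 (4 animals), Rorb h4/h4 (4 animals) and Rorb h5/h5 (3 animals), labelled 7.9 to 9.6 weeks old. Cortex, hippocampus and cerebellum came from 3 DBA/1J and 3 Rorb h5/h5 mice labelled 7.0 weeks old.

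*Rorb* encodes a nuclear receptor, and mice without its first isoform walk with a high-stepping gait. The Rorb h1 allele is a duplication that holds the first exon of that isoform, the Rorb h4 allele a premature stop in a later exon and the Rorb h5 allele a lost start codon of the same isoform. The mutations of Rorb h2 and Rorb h3 are not known. Mice of both unknown alleles carried the albino B6(Cg)-Tyr c-2J/J background and Rorb h4/h4 mice a B6.129S7-Il1r1tm1/mx/J background, so that the C57BL/6J controls do not share every other allele with them. Rorb h5/h5 mice were on DBA/1J. All mice were killed with CO2 before the tissues were frozen.

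Immediate early genes are transcribed within minutes of a stimulus and need no new protein for it. In neurons, calcium that enters through synaptic receptors and voltage-gated channels activates kinases, which phosphorylate CREB, SRF partners and MEF2 proteins that already sit on the promoters. The products fall into roles. *Fos*, *Fosb* and *Fosl2* encode Fos-family proteins, which pair with Jun proteins such as that of *Junb* to form the AP-1 transcription factor. *Egr1* encodes a zinc-finger transcription factor, *Npas4* a bHLH-PAS factor that depends on calcium entry, and *Nr4a1* and *Nr4a3* orphan nuclear receptors. *Nr4a1* lies on chromosome 15 (101253902 to 101274795, GRCm38). *Arc* encodes a cytoskeletal protein that acts at synapses, and *Dusp1* a phosphatase that switches off MAP kinases. The mRNAs last for a short time, and their level in frozen tissue depends on what the animal did shortly before death. The time of day of collection is not given in the sources used here.

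The promoters of 4 members are shown because they carry the element by which CREB is known to drive such genes. Each line runs from 250 bases before to 50 bases after the start, 5′ to 3′ on the strand of the gene, as RefSeq gives it on GRCm38.p6. Capitals mark the core of the cAMP response element, TGACG on either strand, the full element TGACGTCA, which contains that core, and, on the gene's strand, TATAAA.
Fos (chr12:85473640-85473939, plus strand): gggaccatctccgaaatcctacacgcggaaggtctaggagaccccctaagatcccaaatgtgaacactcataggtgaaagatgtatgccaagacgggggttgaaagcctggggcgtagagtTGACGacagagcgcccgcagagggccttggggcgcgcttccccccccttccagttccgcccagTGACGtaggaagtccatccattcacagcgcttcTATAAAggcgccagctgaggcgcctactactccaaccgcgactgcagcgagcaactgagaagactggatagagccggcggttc
Npas4 (chr19:4989922-4990221, minus strand): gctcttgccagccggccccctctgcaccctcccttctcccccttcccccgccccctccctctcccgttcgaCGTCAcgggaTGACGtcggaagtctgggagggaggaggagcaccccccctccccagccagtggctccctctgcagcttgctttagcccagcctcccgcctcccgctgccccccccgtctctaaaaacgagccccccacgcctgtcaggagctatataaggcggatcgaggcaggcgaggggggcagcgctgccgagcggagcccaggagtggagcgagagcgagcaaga
Nr4a3 (chr4:48045055-48045354, plus strand): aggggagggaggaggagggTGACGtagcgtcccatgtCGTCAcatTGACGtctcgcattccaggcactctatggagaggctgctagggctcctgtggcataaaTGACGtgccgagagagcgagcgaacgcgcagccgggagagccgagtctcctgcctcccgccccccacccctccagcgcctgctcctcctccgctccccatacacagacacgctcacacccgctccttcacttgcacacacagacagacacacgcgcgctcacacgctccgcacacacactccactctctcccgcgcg
Dusp1 (chr17:26508423-26508722, minus strand): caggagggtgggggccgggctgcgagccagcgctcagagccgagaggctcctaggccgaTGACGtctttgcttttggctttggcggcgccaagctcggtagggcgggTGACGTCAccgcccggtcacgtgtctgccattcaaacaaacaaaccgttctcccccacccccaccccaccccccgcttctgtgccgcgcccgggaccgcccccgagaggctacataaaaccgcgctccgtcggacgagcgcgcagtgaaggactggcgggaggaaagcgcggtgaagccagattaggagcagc
In *Fos* the core began 129 and 66 bases before the start and TATAAA 33 bases before it. In *Npas4* a pair of cores lay 179 and 169 bases before the start, on opposite strands. *Nr4a3* held 4 cores, and *Dusp1* held the full element 143 bases before the start. Promoters of 8 members were in the table, *Fos*, *Fosb*, *Fosl2*, *Junb*, *Npas4*, *Nr4a1*, *Nr4a3* and *Dusp1*, each at its first listed start. The core was in 7 of these 8 windows and in 21.0% of 27025 promoters of the same length. The full element was in 1 of the 8 and in 1.88% of all, and TATAAA in 2 of the 8 and in 8.88% of all. A match is a description of the letters and not a site.

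Total expected counts ranged from 32889755 to 59120536 per library. *Rorb* stood at 10.6 to 13.8 TPM (a transcript level scaled for gene length and library depth) in brain hemi-sections of both control strains, at 7.31 to 7.82 TPM in Rorb h1/h1, at 5.76 to 6.58 TPM in Rorb h2/h2, at 11.1 to 11.8 TPM in Rorb h3/h3, at 2.57 to 3.57 TPM in Rorb h4/h4 and at 15.4 to 18.2 TPM in Rorb h5/h5. Before the results, 4 departures are given. The 3 region libraries of Rorb h5/h5 replicate 3, labelled female, held 57.8 to 86.2 CPM of *Ddx3y* from the Y chromosome and at most 0.320 CPM of *Xist*. The hemi-section of DBA/1J replicate 1 held 31.5 TPM of 5 cerebellar markers in sum, and the lowest of the other hemi-sections held 310 TPM. The spinal cord of Rorb h5/h5 replicate 3 held 330 TPM of 5 meningeal markers in sum against a median of 40.4 TPM over all cords. Animal identifiers in the file names fell into series: C57BL/6J and Rorb h1/h1 shared 1 series, while the h2, h3 and h4 mutants each had a series without controls, so that genotype and series cannot be told apart there.

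The 10 genes were expressed in all 5 tissues, in an order that differed by gene. *Fos*, on chromosome 12 (85473890 to 85477274, GRCm38), had its highest median TPM in cerebellum, 112 TPM (34.2 to 128, 6 libraries), followed by cortex with 48.9 (44.8 to 81.5, 6 libraries), hippocampus with 28.8 (20.1 to 39.5, 6 libraries), brain hemi-section with 19.6 (4.57 to 57.2, 24 libraries) and spinal cord with 12.3 (6.44 to 28.7, 24 libraries). Hippocampus and cortex did not overlap, while the other neighbours in that order did. Cerebellum and cortex overlapped through the replicates 3 of both groups, at 34.2 and 69.6 TPM. *Dusp1*, on chromosome 17 (26505591 to 26508472), was also highest in cerebellum, with a median of 99.3 TPM (43.3 to 122) against 45.2 TPM in cortex (29.6 to 68.4) and 25.045 TPM in hippocampus (13.7 to 27.7). *Arc*, on chromosome 15 (74669081 to 74672570), was the reverse. Its median was 169 TPM in cortex (141 to 369), 92.6 TPM in hippocampus (64.2 to 131) and 7.33 TPM in cerebellum (6.12 to 8.67), without overlap between these 3 regions. *Egr1* was the most abundant member in cortex, with a median of 263 TPM (205 to 411), and fell to 26.3 TPM in cerebellum (15.5 to 48.2). *Nr4a3*, on chromosome 4 (48045078 to 48086447), was highest in hippocampus, where its 6 libraries lay between 45.2 and 49.98 TPM, a 1.11-fold range. *Fosb* was the least abundant member in spinal cord, with a median of 0.855 TPM (0.380 to 2.25).

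**Figure D1:**
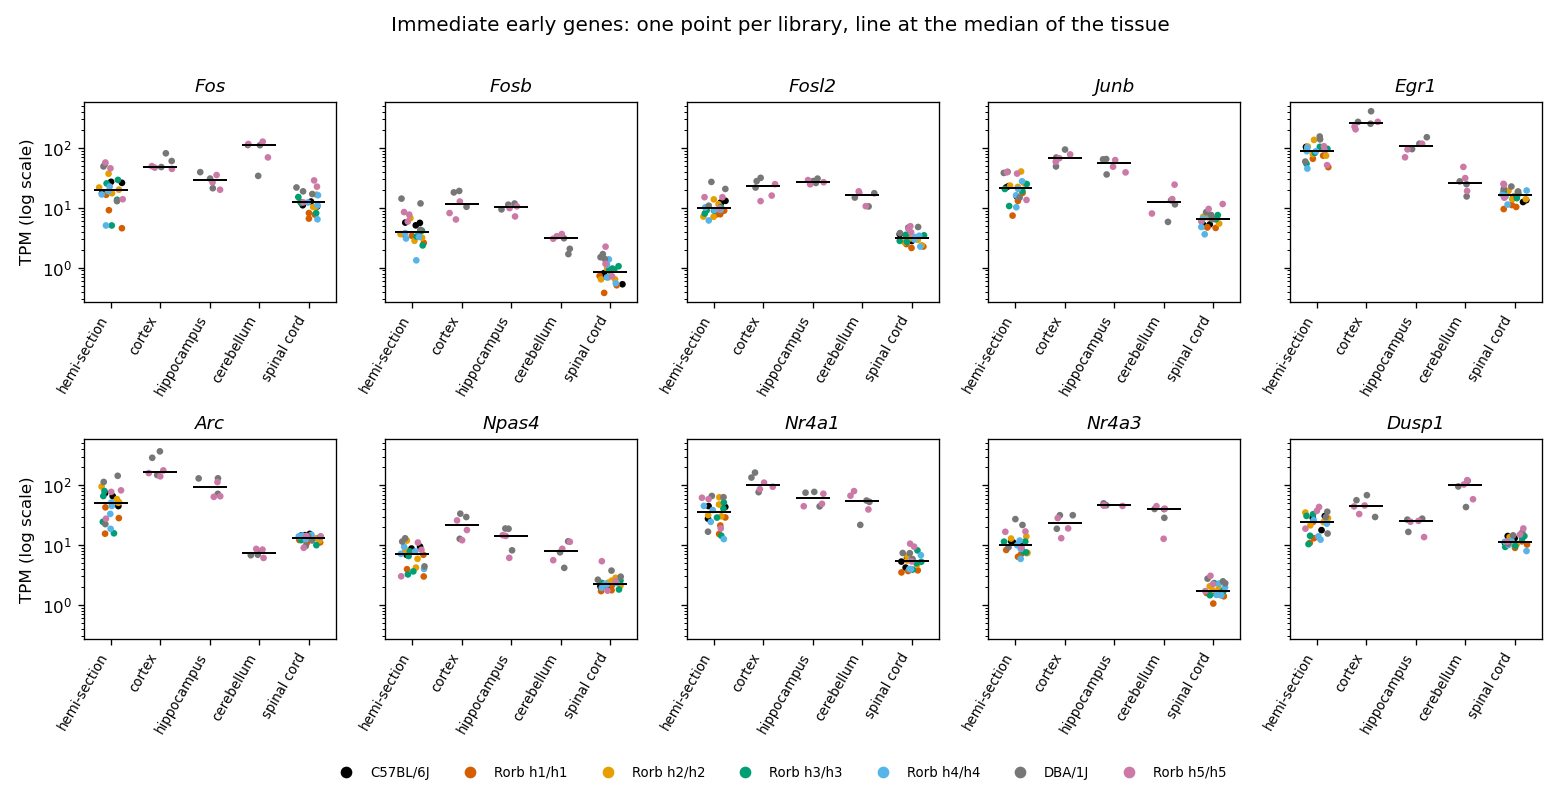
TPM of each gene (log axis) in every library by tissue, 1 point per library coloured by group, with a line at the tissue's median. *Fos* and *Dusp1* have their highest medians in cerebellum, 112 and 99.3 TPM, while *Arc* has its lowest there, 7.33 TPM.

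Regions of the same 6 animals were compared with the animal as a block (edgeR's quasi-likelihood test, log2 fold change ± SE of normalised counts, adjusted over all genes). In hippocampus against cortex 7 members were lower and 1 was higher, against 21.2% and 20.7% of 17604 genes called lower and higher. *Egr1* was lower, with a log2 fold change of -1.39 ± 0.23 (adjusted p = 0.00013) and *Nr4a3* higher by 1.01 ± 0.20 (adjusted p = 0.00067), while *Fosb* (-0.32 ± 0.22) and *Fosl2* (0.31 ± 0.16) did not pass. The call of *Junb* (-0.45 ± 0.16, adjusted p = 0.0332) was lost with DESeq2 (0.0643), without the animal block (0.167) and without DBA/1J replicate 2, DBA/1J replicate 3, Rorb h5/h5 replicate 1 or Rorb h5/h5 replicate 3, and that of *Npas4* without the block (0.0596). In cerebellum against cortex 7 were lower and 2 higher, against 36.9% and 36.6% of genes. *Arc* was lower, with a log2 fold change of -4.95 ± 0.21 (adjusted p = 3.79e-12), *Egr1* was at -3.51 ± 0.25 and *Junb* at -2.69 ± 0.18. *Dusp1* was higher by 0.71 ± 0.10 (adjusted p = 8.86e-06). *Fos* was higher by 0.47 ± 0.18 (adjusted p = 0.0238), but by 0.03 in the DBA/1J animals alone, and the call was lost without DBA/1J replicate 1, Rorb h5/h5 replicate 1 or Rorb h5/h5 replicate 2. In cerebellum against hippocampus 7 were lower and 2 higher, against 37.6% and 35.8% of genes, with *Dusp1* at 1.81 ± 0.10 and *Fos* at 1.44 ± 0.18. The member shares lie above the background in the lower direction in all 3 contrasts. These are bulk tissues, in which fewer cells of a type and less RNA per cell cannot be told apart. Beside these contrasts, excitatory neuron markers had a median sum of 1775 TPM in cortex, 1526 TPM in hippocampus and 423 TPM in cerebellum, and inhibitory neuron markers 486, 393 and 1495 TPM. Choroid plexus markers ran from 236 to 6226 TPM among hippocampus libraries and from 12.4 to 3716 TPM among cerebellum libraries. Their part in the differences was not tested.

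All 10 members were lower in spinal cord than in brain hemi-sections of the same animals, in both sets of strains. On C57BL/6J and the mutants set against it (18 animals) the log2 fold changes ran from -2.63 for *Nr4a1* to -0.57 for *Fos*, and 40.3% of 17601 genes were called lower and 41.0% higher. On DBA/1J and Rorb h5/h5 (6 animals) they ran from -2.72 for *Nr4a3* to -0.71 for *Fos*, and 32.6% of 17369 genes were called lower and 31.1% higher. *Fos* and *Dusp1* had the smallest differences in both sets, -0.91 ± 0.08 and -1.02 ± 0.09 for *Dusp1*. Beside this, the summed markers of excitatory neurons had a median of 1068 TPM in hemi-sections and 124 TPM in cords, and those of oligodendrocytes 4843 and 19027 TPM; their part in the difference was not tested.

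Next, each mutant was compared with its control within a tissue, which asks whether loss or change of *Rorb* goes with other levels of these genes. Over 13 such comparisons and 130 tests of a member, 3 were called at an adjusted p under 0.05, all lower and all in spinal cord: *Fos* and *Arc* in Rorb h1/h1 and *Arc* in Rorb h2/h2. Among all genes the share called ran from 0% to 2.09% over these comparisons. Sample values below are CPM, read counts scaled to a common library size with TMM factors within a tissue, which compare samples and not genes. The h1, h2, h3 and h4 mutants are set against the same 3 C57BL/6J controls in each tissue, so their differences are not independent of each other.

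**Figure D2:**
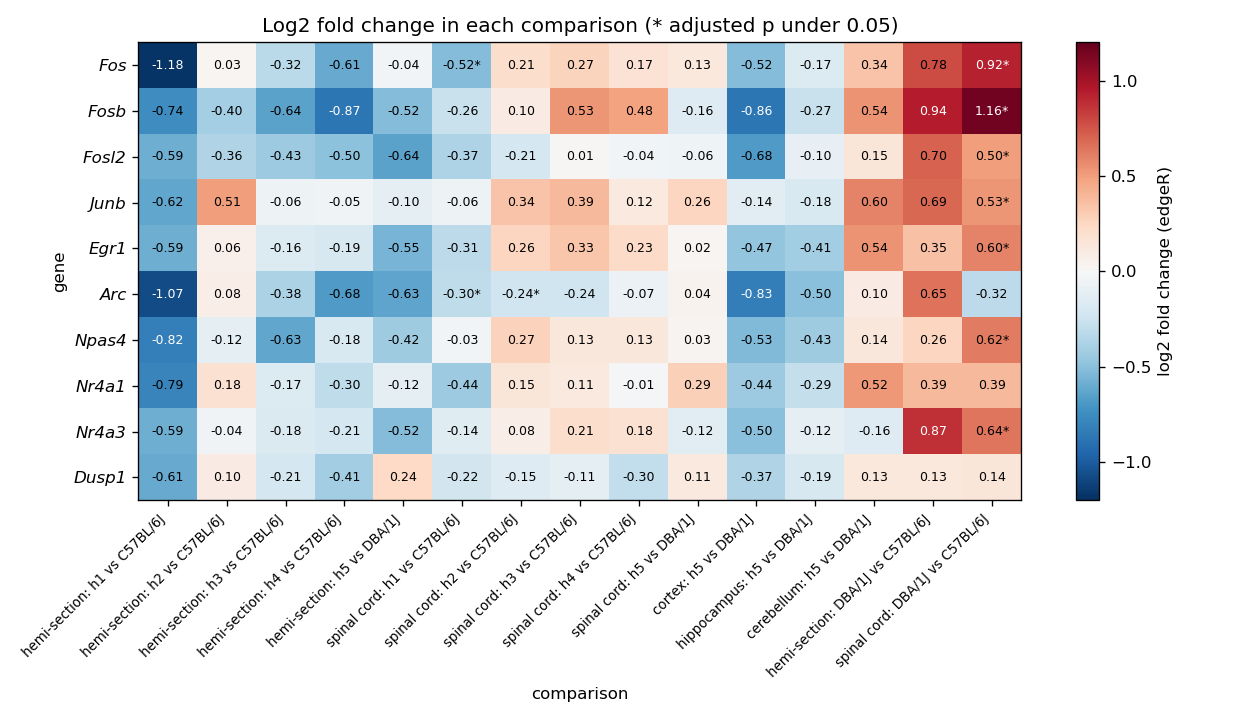
Log2 fold change (edgeR) of each gene (rows) in the 13 comparisons of a mutant with its control and in the 2 comparisons of DBA/1J with C57BL/6J (columns), with a star where the adjusted p is under 0.05. All 10 genes are below 0 in hemi-sections of Rorb h1/h1, where 0 are called, and 7 are called higher in spinal cord of DBA/1J.

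In brain hemi-sections of Rorb h1/h1 all 10 members had a log2 fold change below 0, from -1.18 to -0.59 with a median of -0.68, while the median over 17603 genes was 0.005 and 48.0% of genes were below 0. *Fos* measured 25.3, 21.6 and 14.99 CPM in the 3 C57BL/6J and 3.99, 14.6 and 7.93 CPM in the 3 Rorb h1/h1 animals. Every mutant lay below every control, and replicate 1 was the lowest brain of all 24. *Fosl2*, on chromosome 5 (32136472 to 32157840), measured 44.1, 38.2 and 40.6 CPM in controls and 27.1, 25.1 and 29.4 CPM in mutants, groups that were further apart than their own ranges. Its log2 fold change was -0.59 ± 0.08 (edgeR, adjusted p = 0.0838). *Arc* measured 116, 93.9 and 67.8 CPM against 24.6, 63.8 and 42.3 CPM, a log2 fold change of -1.07 ± 0.27 with no overlap. *Nr4a3* measured 31.4, 26.3 and 31.5 CPM against 18.3, 18.1 and 22.7 CPM (-0.59 ± 0.10). *Junb*, *Nr4a1* and *Dusp1* overlapped between the groups. In all, 7 of the 10 members had every mutant below every control, as did 5.33% of genes, and 10 of 10 had an unadjusted p under 0.05, as did 4.23% of genes. The members moved together between animals, with an r above 0.8 for 31 of their 45 pairs in hemi-sections. These counts are therefore not of separate observations. With adjustment over all genes edgeR called 0 members and 0% of genes (745 genes at an unadjusted p under 0.05). *Rorb* itself, the mutated gene, was not called in this fit (-0.60 ± 0.07, adjusted p = 0.0838). The count of 0 therefore does not show that levels were the same. Same-numbered animals deviated together in this comparison, and with the replicate number as a block 2 members and 0.017% of genes were called, *Fosl2* (-0.59, adjusted p = 0.0166) and *Nr4a3* (-0.59, adjusted p = 0.0375). DESeq2 called 4 members and 0.115% of genes, and edgeR with no filter on low counts called 8 members and 0.144% of genes.

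Hemi-sections of the other mutants had 0 members called in the main fits. Members were called with DESeq2 (h3), with the replicate block (h4) and with no low-count filter (h3 and h4), as counted in the last section. The share called among all genes was 0.136% for the h2 allele, 0.164% for h3, 0.703% for h4 and 0% for h5. At an unadjusted p under 0.05 the counts were 1, 3, 3 and 1 of 10 members, against 7.45%, 10.4%, 13.2% and 5.80% of genes. In Rorb h2/h2 *Junb*, on chromosome 8 (84976909 to 84978748), measured 21.8, 34.98, 19.6 and 20.4 CPM against 19.5, 18.5 and 13.1 CPM in controls, with every mutant above every control and a log2 fold change of 0.51 ± 0.19 (edgeR, adjusted p = 0.56). In Rorb h3/h3 all 10 members had a log2 fold change below 0 (median -0.27). The groups differ in labelled sex, 1 female of 4 against 2 of 3 in controls. With sex as a covariate *Junb* (0.07), *Nr4a1* (0.04) and *Dusp1* (0.09) were above 0, *Fos* was at -0.07, *Arc* at -0.12, and 0 members were called. *Fos* there measured 9.996, 4.88, 22.2 and 28.3 CPM, so that replicates 3 and 4 lay among or above the controls and replicate 2 far below them. *Fosb*, on chromosome 7 (19302696 to 19310118), measured 6.32, 4.42, 7.22 and 8.31 CPM in Rorb h3/h3 and 2.51, 5.53, 6.63 and 7.68 CPM in Rorb h4/h4 against 11.1, 9.09 and 10.6 CPM in controls. Both mutants lay below all controls, at -0.64 ± 0.17 and -0.87 ± 0.25 (adjusted p = 0.22 and 0.155). *Fosl2* did the same in both, at -0.43 ± 0.10 and -0.50 ± 0.14 (adjusted p = 0.168 and 0.141). Without replicate 4 of Rorb h3/h3 *Fosl2* was called (adjusted p = 0.0388, 0.165% of genes called), and without replicate 1 of Rorb h4/h4 *Fosb* was called (adjusted p = 0.0396, 1.03% of genes called).

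In hemi-sections of Rorb h5/h5 and DBA/1J the animals of each group split. *Fos* measured 45.9, 49.2 and 10.8 CPM in DBA/1J and 54.1, 37.6 and 11.9 CPM in Rorb h5/h5, and replicate 3 was the low animal of both groups. *Arc* measured 177, 223 and 35.02 CPM and 129, 114 and 39.3 CPM in the same order. All 10 members were below their group mean in both replicates 3 and above it in the other 4 animals. The 2 low animals share 1 identifier series, GH0072, the female label and an age of 8.4 weeks. Rorb h5/h5 replicate 1, also labelled female, was among the high animals. DBA/1J replicate 1, another high animal, is the hemi-section with 31.5 TPM of cerebellar markers, and its part was not tested. The log2 fold change of *Fos* was -0.04 ± 0.57, and without the 2 animals of that series, an alternative chosen after seeing the data, it was -0.05 ± 0.16 and 0 members were called. With sex as a covariate it was 0.57, and *Arc* and *Nr4a1* turned from -0.63 and -0.12 to 0.20 and 0.48, with 0 members called.

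In spinal cord of Rorb h1/h1 2 members were called, against 0.289% of genes. *Fos* measured 10.02, 9.50 and 9.32 CPM in the controls and 6.22, 7.05 and 6.79 CPM in the mutants, with no overlap, and changed by -0.52 ± 0.09 (edgeR, adjusted p = 0.0182). *Arc* measured 22.8, 22.6 and 23.05 CPM and 18.02, 19.4 and 18.1 CPM and changed by -0.30 ± 0.06 (adjusted p = 0.0448). *Egr1* measured 21.4, 23.8 and 19.1 CPM and 16.1, 18.4 and 17.2 CPM, also with no overlap, at -0.31 ± 0.08 (adjusted p = 0.122). Every mutant lay below every control for 6 of the 10 members and for 8.45% of genes. In cords too the members moved together (median r of their pairs 0.65), so this count is not of separate observations. Both calls were lost without C57BL/6J replicate 1 (0% of genes called) or Rorb h1/h1 replicate 1 (0%), replicate 2 (0.136%) or replicate 3 (0.165%). Without C57BL/6J replicate 2, 1 member, *Fos*, and 0.612% of genes were called, and without C57BL/6J replicate 3, 4 members and 1.06% of genes were. The log2 fold change of *Fos* stayed between -0.56 and -0.47 in these fits, with adjusted p-values from 0.0139 to 0.197. With one joint fit of all cords both calls were lost as well (adjusted p = 0.626 for *Fos* and 0.534 for *Arc*). Of 14 marker lists 5 were lower in sum in these cords without overlap: neurons (3269 to 3432 TPM against 3638 to 3767 TPM), excitatory neurons (113 to 121 against 125 to 132), inhibitory neurons (524 to 527 against 560 to 581), endothelium (151 to 158 against 166 to 184) and hippocampal markers (75.8 to 79.7 against 83.8 to 89.7). Their part in the result was not tested.

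In spinal cord of Rorb h2/h2 1 member was called, against 2.09% of genes. *Arc* measured 19.5, 19.4, 19.97 and 18.5 CPM, all 4 below the controls given above, and changed by -0.24 ± 0.05 (adjusted p = 0.0244). The call held without replicate 4 of Rorb h2/h2 (adjusted p = 0.0412) and was lost without any of the 6 other libraries (adjusted p from 0.0506 to 0.128), in a joint fit of all cords (0.455) and with the replicate number as a block (0.0843). The summed neuron markers were lower in these cords too, 3388 to 3536 TPM against 3638 to 3767 TPM, and so were those of inhibitory neurons, 509 to 538 TPM against 560 to 581 TPM; their part in the result was not tested.

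Spinal cords of the h3, h4 and h5 mutants had 0 members called, against 1.01%, 1.75% and 0.00581% of genes. At an unadjusted p under 0.05 the counts were 4, 1 and 0 of 10 members, against 13.6%, 14.0% and 8.90% of genes. In Rorb h3/h3 8 members had a log2 fold change above 0 and *Arc* lay below all controls at 15.6, 20.7, 19.9 and 21.2 CPM (-0.24 ± 0.09, adjusted p = 0.258). Beside this, 2 of 14 marker lists lay below the controls without overlap in these cords, those of inhibitory neurons (507 to 556 TPM against 560 to 581 TPM) and hippocampus (71.2 to 77.2 against 83.8 to 89.7), and their part in the value was not tested. *Junb* in the same animals lay above all controls, at 5.64, 5.01, 6.33 and 6.65 CPM against 4.43, 4.63 and 4.44 CPM (0.39 ± 0.11, adjusted p = 0.138). In Rorb h4/h4 replicate 1 was lowest for 9 of the members. *Fos* there measured 6.09, 10.6, 14.9 and 12.1 CPM.

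The difference of a mutant from its control was compared between tissues of the same animals by an interaction term, in 8 contrasts, together with the strain difference between tissues. Over these 9 contrasts and 90 tests of a member 0 passed, with a lowest adjusted p of 0.10 in Rorb h4/h4, where *Fosb* differed by 1.39 ± 0.24 and *Fosl2* by 0.48 ± 0.09 between spinal cord and hemi-section. The share of all genes passing in these fits is not given here, so the count is not read against a background.

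The 3 regions of Rorb h5/h5 had 0 members called, against 0% of genes in cortex (1106 genes, or 6.42%, at an unadjusted p under 0.05, 5 members among them), 0.0118% in hippocampus and 0.0120% in cerebellum. *Rorb* itself was not called by edgeR there (adjusted p = 0.124, 0.346 and 0.0806 in that order). It was not called in hemi-sections (0.392) or cords (0.376) of Rorb h5/h5 either. In these fits 0 calls do not show that levels were the same. In cortex all 10 members had a log2 fold change below 0, with a median of -0.51, as did 50.1% of genes. In hippocampus all 10 were below 0 too, with a median of -0.23, as were 48.6% of genes. In cerebellum 9 were above 0 and 1 below, with a median of 0.24, while 51.2% of genes were below 0. *Arc* in cortex measured 459, 547 and 218 CPM in DBA/1J and 257, 201 and 231 CPM in Rorb h5/h5, with DBA/1J replicate 3 inside the mutants' range. Without DBA/1J replicate 3, 4 members and 1.26% of genes were called in cortex, the members being *Fos*, *Arc*, *Nr4a1* and *Dusp1*. *Npas4*, on chromosome 19 (4984353 to 5003439), was low in replicate 3 of both groups in every region. It measured 50.8, 53.7 and 20.3 CPM in cortex of DBA/1J and 27.98, 39.8 and 18.8 CPM in cortex of Rorb h5/h5. In hippocampus it measured 31.2, 30.3 and 13.0015 CPM and 23.3, 22.9 and 9.34 CPM. In cerebellum it measured 11.3, 16.9 and 6.44 CPM and 12.9, 16.9 and 8.28 CPM. *Nr4a3* did not follow this. In cerebellum it measured 100.4, 101 and 73.5 CPM in DBA/1J and 102, 32.1 and 112 CPM in Rorb h5/h5, where replicate 2 was low although its *Fos* was the highest of the 6 at 108 CPM. Without Rorb h5/h5 replicate 3, whose libraries go against the sex label, 0 members were called in each region, as were 0% of genes in cortex and hippocampus and 0.047% in cerebellum.

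The control strains were compared with each other. In spinal cord 7 of the 10 members were higher in DBA/1J than in C57BL/6J, against 21.3% of genes called. *Fos* measured 18.4, 21.05 and 15.4 CPM in DBA/1J, all above the C57BL/6J cords, and rose by 0.92 ± 0.11 (adjusted p = 3.13e-05). *Fosb* rose by 1.16 ± 0.21, *Nr4a3* by 0.64 ± 0.11, *Npas4* by 0.62 ± 0.15, *Egr1* by 0.60 ± 0.10, *Junb* by 0.53 ± 0.13 and *Fosl2* by 0.50 ± 0.11. *Arc* went the other way, at 21.6, 19.2 and 14.2 CPM, all below the C57BL/6J cords, with a log2 fold change of -0.32 ± 0.12 that did not pass (adjusted p = 0.0731). *Nr4a1* (0.39 ± 0.15) and *Dusp1* (0.14 ± 0.15) did not pass. *Arc* was called lower with DESeq2 (adjusted p = 0.0392), with sex as a covariate (0.00683), with no low-count filter (0.00355) and without DBA/1J replicate 1 (0.0157). *Junb* and *Npas4* were not called without DBA/1J replicate 1 (0.0555 and 0.0605) or in a joint fit of all cords (0.0634 and 0.0733), and leaving out 1 animal left 6 to 8 members called. Of 14 marker lists 2 were lower in sum in DBA/1J cords without overlap, those of hippocampus (77.1 to 81.2 TPM against 83.8 to 89.7 TPM) and cerebellum (27.5 to 33.04 against 35.2 to 38.3), 0 were higher, and their part in the differences was not tested. In hemi-sections 0 members were called, against 11.2% of genes, and all 10 log2 fold changes were above 0 with a median of 0.67. Marker sums were lower in DBA/1J hemi-sections without overlap for astrocytes (642 to 691 TPM against 707 to 786 TPM) and oligodendrocytes (4206 to 4707 against 5000 to 5818). The same held for endothelium (163 to 176 against 177 to 202) and cerebellum (31.5 to 464 against 509 to 724). No list was higher, and their part in the differences was not tested. The groups differ in labelled sex, 1 female of 3 in DBA/1J and 2 of 3 in C57BL/6J. With sex as a covariate the values ran from 0.01 for *Npas4* to 0.55 for *Fosb*, and *Arc* was at 0.03 instead of 0.65. DBA/1J replicate 3 was the low animal, and without it 9 members and 8.59% of genes were called, the members all higher, from 0.60 for *Npas4* to 1.304 for *Fosb*. That animal was singled out by its low values. DBA/1J replicate 1, kept in this fit, is the hemi-section with 31.5 TPM of cerebellar markers, and its part was not tested. Strain and identifier series cannot be told apart in either tissue.

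The animals of a group differed more in these genes than in most others. In hemi-sections the SD between animals within groups, pooled over 7 groups and 24 animals on the log2 CPM scale, was 0.93 for *Fos*, 0.87 for *Arc*, 0.77 for *Nr4a1*, 0.67 for *Npas4* and 0.37 for *Fosl2*, the steadiest member. The median over 18723 genes was 0.14. The members' median percentile was 91.9, and among the 500 genes nearest in level each member ranked between 1 and 4. In spinal cord the SD ran from 0.20 for *Arc* to 0.45 for *Fosb*, against a median of 0.11 over 18522 genes, with a median percentile of 73.6 and ranks of 4 to 28 among the 500 genes nearest in level.

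**Figure D3:**
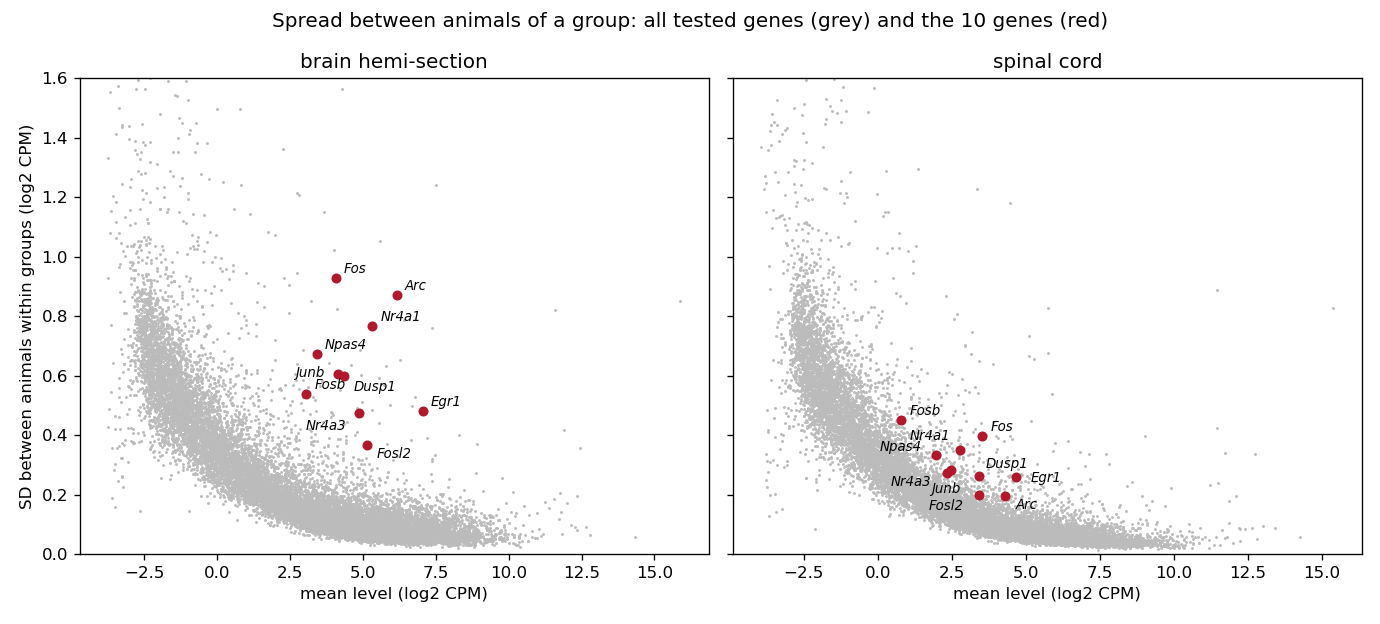
SD between animals of a group (log2 CPM) against the mean level (log2 CPM) for every tested gene (grey) and the 10 immediate early genes (red), in hemi-sections and spinal cords, with the axis ending at 1.6. *Fos* at 0.93 and *Arc* at 0.87 lie well above genes of like level in hemi-sections.

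The members moved together. With group means removed, 31 of the 45 pairs of members had a Pearson r above 0.8 over the 24 hemi-sections (median 0.85, from 0.53 to 0.97). *Arc* was the nearest gene to *Fos* of all tested (r = 0.97), and 9 of the 10 nearest were immediate early genes: *Arc*, *Egr2*, *Nr4a1*, *Junb*, *Dusp1*, *Egr1*, *Sik1*, *Tiparp* and *Btg2*. The other was *1700016P03Rik* (r = 0.91). *Egr2* encodes a zinc-finger factor related to that of *Egr1*, *Sik1* a kinase that restrains CREB coactivators, and *Btg2* an antiproliferative protein. An r above 0.8 with *Fos* was found for 7 of the 9 other members, for 10 of 43 further immediate early genes and for 0.0961% of all genes. *Fosl2* (r = 0.73) and *Nr4a3* (r = 0.70) were the least like *Fos*, and the pair of *Nr4a3* and *Dusp1* had the lowest r, 0.53. In spinal cord the pairs had a median r of 0.65, and 3 of 45 were above 0.8. An r above 0.8 with *Fos* was found there for 1 of the 9 other members, 0 of 43 further immediate early genes (median 0.12) and 0.0216% of all genes. Of the 10 nearest genes to *Fos* in cord 3 were immediate early genes (1 to 4 with 1 animal left out), *Egr1* (r = 0.95), *Fosl2* (r = 0.78) and *Nr4a3* (r = 0.77). The others were *Zfyve16*, *5430420F09Rik*, *Gpr3*, *Stk35*, *Ryr2*, *Asxl3* and 1 identifier without a symbol. *Gpr3* encodes a receptor that raises cAMP and *Ryr2* a calcium release channel. The points of these correlations share their library and its depth, and no p is given.

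**Figure D4:**
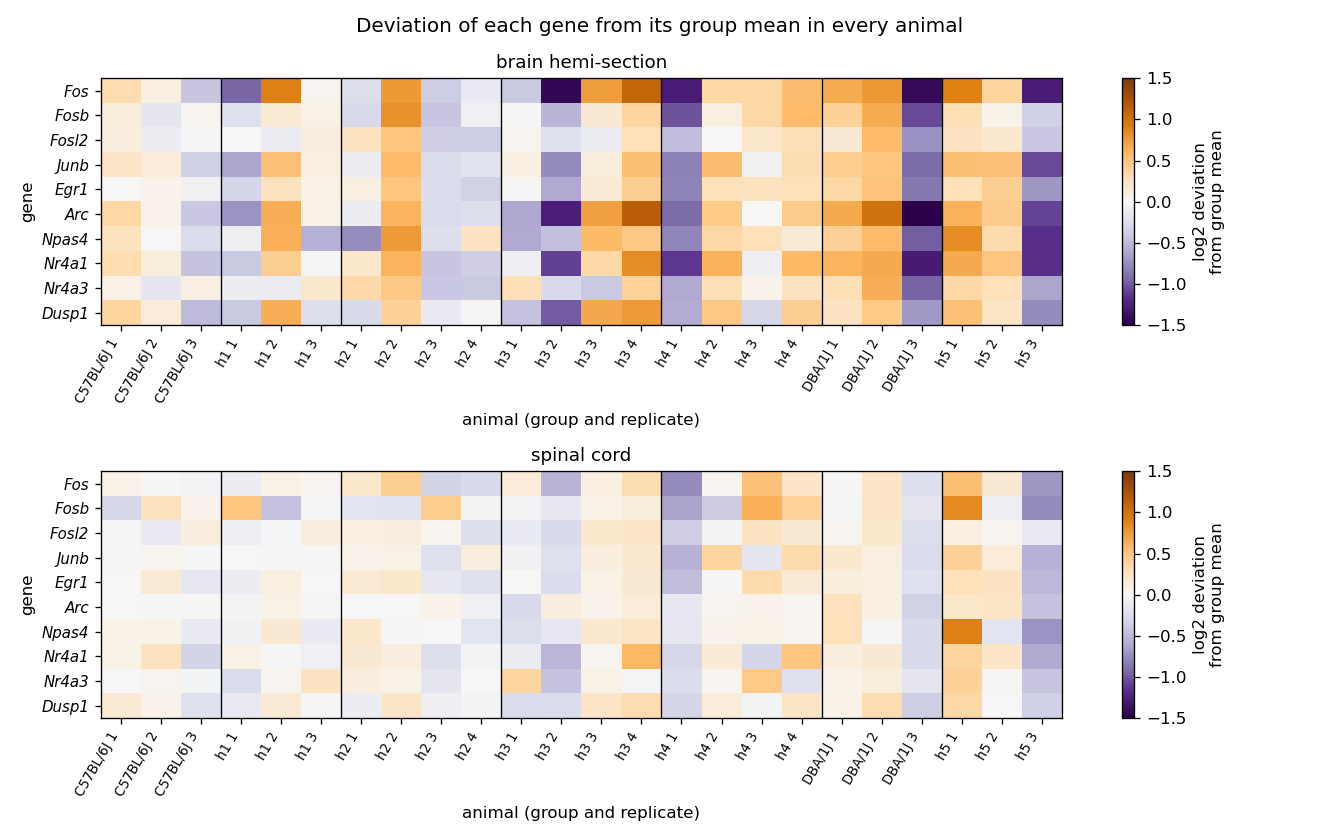
Deviation of each gene (rows) from its group mean in log2 CPM, in the hemi-section and the spinal cord of every animal (columns, with lines between groups), with colours that saturate at the ends of the scale. All 10 genes are below the group mean in hemi-sections of DBA/1J 3, h5 3, h4 1, h3 2, h2 3 and h1 1.

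The same animals were low in brain and in spinal cord. With group means removed, the r between the hemi-section and the cord of the same animal (n = 24) was 0.94 for *Dusp1*, 0.88 for *Egr1*, 0.85 for *Nr4a1*, 0.81 for *Junb*, 0.80 for *Fos*, 0.77 for *Fosl2*, 0.71 for *Arc*, 0.68 for *Npas4*, 0.56 for *Nr4a3* and 0.37 for *Fosb*. The median over members was 0.79 (Spearman's rho 0.76), and over 17949 genes it was 0.06. Without the 2 animals farthest from the median in brain, the members' median r was 0.75. For the mean of the 10 genes, 22 of 24 animals were on the same side of their group mean in both tissues. The lowest 4 hemi-sections were those of DBA/1J replicate 3 (-1.06 on the log2 scale), Rorb h5/h5 replicate 3 (-0.86), Rorb h4/h4 replicate 1 (-0.84) and Rorb h3/h3 replicate 2 (-0.76). Their cords were at -0.27, -0.52, -0.40 and -0.27, the lowest 4 cords as well. Brain and cord of 1 animal share its handling, death and identifier, and whether they shared a day of extraction is not given in the sources used here.

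**Figure D5:**
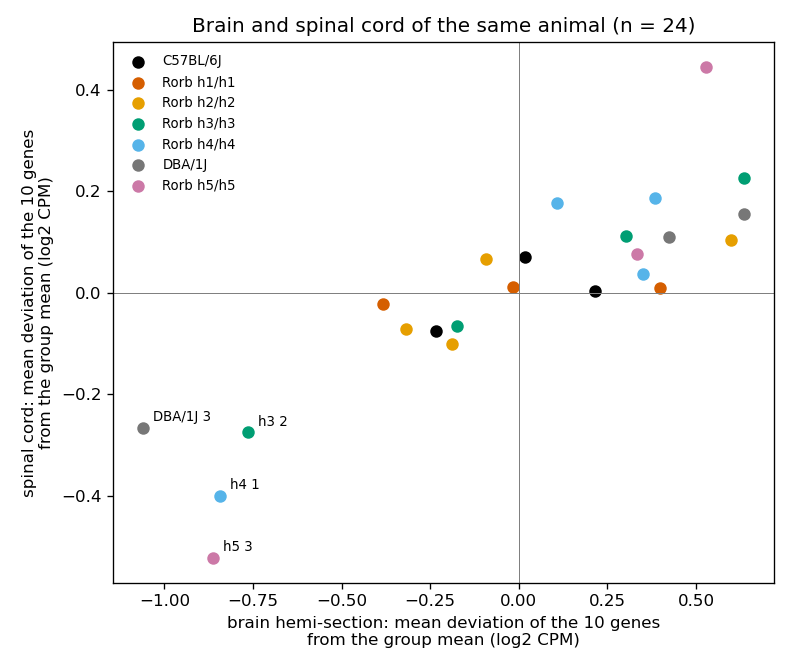
Mean deviation of the 10 genes from the group mean (log2 CPM) in the spinal cord against that in the hemi-section of the same animal, 1 point per animal (n = 24), coloured by group. The 4 animals lowest in brain, from -1.06 to -0.76, are also the 4 lowest in cord, from -0.52 to -0.27.

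Marker levels were set beside these deviations. In hemi-sections the r of the mean deviation with the summed level of 14 marker lists (5 or 6 genes each) ran from -0.55 for meninges to 0.45 for blood, with -0.15 for neurons and -0.24 for cerebellum. In spinal cord it ran from -0.68 for endothelium to 0.62 for hippocampal markers, with -0.64 for meninges, 0.51 for blood and -0.32 for neurons. The lowest cord, that of Rorb h5/h5 replicate 3, is the library with 330 TPM of meningeal markers. Their part in the spread was not tested.

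Other genes of the response were counted from fixed lists of 44 further immediate early genes, 20 late-response genes, which are induced by the products of the early ones, and 23 upstream regulators, which act between the synapse and the promoter. Over the 13 comparisons of a mutant with its control none was called higher. In hemi-sections of Rorb h4/h4 1 of 43 further immediate early genes tested and 4 of 20 late-response genes were lower (0.703% of all genes called), and in Rorb h2/h2 2 of 20 late-response genes were lower (0.136%). Summed endothelium markers were below the controls without overlap in these hemi-sections, 140 to 172 TPM in Rorb h4/h4 and 158 to 166 TPM in Rorb h2/h2 against 177 to 202 TPM. The other marker lists overlapped, and the part of endothelium in these calls was not tested. In spinal cord of Rorb h2/h2 2 of 42 further immediate early genes and 3 of 19 late-response genes were lower (2.09%). In spinal cord of Rorb h4/h4 1 of 42, 1 of 19 and 2 of 23 upstream regulators were lower (1.75%). In these Rorb h4/h4 cords 5 of 14 marker lists lay below the controls without overlap, those of neurons (3388 to 3607 TPM against 3638 to 3767 TPM), excitatory neurons (115 to 124 against 125 to 132), inhibitory neurons (451 to 539 against 560 to 581), endothelium (142 to 156 against 166 to 184) and hippocampus (73.1 to 82.2 against 83.8 to 89.7), and their part in these calls was not tested. In hemi-sections *Nptx2*, which encodes a secreted pentraxin of excitatory synapses, was lower in Rorb h2/h2 and Rorb h4/h4. Its log2 fold changes were -0.65 ± 0.11 and -0.67 ± 0.10 (adjusted p = 0.0407 and 0.0142). It was not called in hemi-sections of the other alleles, at -0.22 in Rorb h1/h1, -0.43 in Rorb h3/h3 and 0.54 in Rorb h5/h5. *Pcsk1*, which encodes a prohormone convertase, was lower in hemi-sections, by -0.47 ± 0.08 in Rorb h2/h2 and by -0.43 ± 0.07 in Rorb h4/h4 (log2 fold change). It had like values without a call in hemi-sections of Rorb h1/h1 (-0.42), Rorb h3/h3 (-0.40) and Rorb h5/h5 (-0.40). In spinal cord *Sgk1*, which encodes a kinase also induced by glucocorticoids, was lower, with a log2 fold change of -0.81 ± 0.14 in Rorb h2/h2 and of -0.93 ± 0.13 in Rorb h4/h4 (adjusted p = 0.00437 and 0.00181). *Scg2*, which encodes a secretory granule protein, was lower, with a log2 fold change of -0.17 ± 0.03 and -0.21 ± 0.04. In the strain comparison of spinal cord 7 further immediate early genes were higher and 2 lower in DBA/1J, of 41 tested, which is 22.0% and close to the 21.3% of all genes called. Late-response genes were higher in 4 and lower in 2 of 19 (31.6%), and upstream regulators higher in 2 and lower in 7 of 23 (39.1%).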

How the data were processed

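RNA of 66 libraries was analysed gene by gene for 10 immediate early genes. The members and the gene lists were chosen with earlier results of these data known. The authors trimmed reads with Trim Galore, aligned them with STAR 2.7 to GRCm38 and estimated expected counts per gene with RSEM 1.3, which were deposited. The deposited TPM values were scaled by the authors for length and depth in RSEM. The annotation version is not given in the sources used here. Rows without a symbol (1.52% to 12.7% of a library's counts) were kept.

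Each expected count was made a whole number, and edgeR 4.0.16 under R 4.3.3 tested them (filterByExpr, TMM, quasi-likelihood test, Benjamini-Hochberg adjustment over all tested genes, threshold 0.05), each mutant against its control within a tissue, strains within a tissue, and tissues with the animal as a block. DESeq2 (version 1.42.0), the tool of the authors, served as an alternative. Log2 CPM had a prior count of 2. Deviations of same-numbered animals had correlations of 0.11 to 0.20 in Rorb h1/h1 hemi-sections and of 0.09 to 0.15 in Rorb h4/h4 hemi-sections. In both the shared numbers follow the labelled sex. All correlations were also above 0 in cords of Rorb h1/h1 (0.02 to 0.05) and Rorb h4/h4 (0.06 to 0.18) and in hippocampus of Rorb h5/h5 (0.04 to 0.22). Elsewhere some or all were below 0. On simulated counts for the Rorb h1/h1 hemi-sections (17374 genes) 73.7% of 2-fold changes were recovered, and 10.2% of calls were false. The changed genes were drawn at random and each gene was simulated independently. The members had a median percentile of spread of 91.9 in hemi-sections and moved together, so this recovery does not carry over to them. Genes named are the 10 members, the genes of the other lists called in 2 or more mutant comparisons, the 10 nearest to *Fos* in each tissue, and *Rorb*. Promoters came from RefSeq (GRCm38.p6). Animals were separate mice, and 0 of 78 replicate pairs were identical. Other settings were DESeq2, edgeR with the size factors of DESeq2, all genes kept whatever their counts, a sex term, the replicate number as a block, a joint fit of a tissue's groups, TPM with 0.1 added, rank correlation, and leaving out each animal.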

Additional observations from a re-analysis of the deposited data

Results flagged for a closer look

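In 60 sets of 4 samples (10 genes in 6 groups), 5 had a sample far from the other 3 by Dixon's criterion, which chance meets in about 1 group in 20. Of these, 4 were the same animal, Rorb h4/h4 replicate 1. In its hemi-section *Fos* was 4.92 CPM against 15.5, 15.5 and 17.8 CPM, and *Egr1* was 70.7 CPM against 147, 148 and 149 CPM. In its spinal cord *Arc* was 19.7 CPM against 22.5, 22.5 and 22.6 CPM, and *Npas4* was 3.28 CPM against 3.80, 3.82 and 3.83 CPM. The remaining sample was the spinal cord of Rorb h2/h2 replicate 3, with *Junb* at 4.84 CPM against 5.88, 5.97 and 6.11 CPM. Over the 90 interaction tests 0 members passed, a count given without a share of all genes.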

How the results depend on the processing

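Leaving out 1 animal gave 0 to 1 members called in hemi-sections of the h3 and h4 mutants, 0 to 4 in cortex of Rorb h5/h5 and in cords of Rorb h1/h1, 0 to 1 in cords of Rorb h2/h2 and 0 to 9 between strains in hemi-sections, while the nearest genes to *Fos* in spinal cord held 1 to 4 immediate early genes (1 without replicate 2 or replicate 4 of Rorb h3/h3). With DESeq2, 4 members were called in hemi-sections of Rorb h1/h1 (0.115% of genes), 2 in those of Rorb h3/h3 (1.27%) and 1 in cords of Rorb h3/h3 (2.62%), while for cords of Rorb h1/h1 it called 0 because it gave no adjusted p for the 10 members (2.11% of the 6628 genes with one). With no low-count filter the counts were 8, 1 and 2 in hemi-sections of the h1, h3 and h4 mutants (0.144%, 0.33% and 1.38% of genes), 5, 2 and 1 in cords of the h1, h2 and h3 mutants (1.89%, 3.06% and 1.49%), and 3 between strains in hemi-sections (8.82%), and the median percentile of spread in spinal cord was 60.6. A joint fit of a tissue's groups called 0 in cords of the h1 and h2 mutants. With the replicate block 2 members were called in hemi-sections of Rorb h1/h1 (0.017% of genes). In those of Rorb h4/h4, where same-numbered animals correlated to a like degree, 2 were called, *Fosb* and *Fosl2* (1.37% of genes, against 0.703% without the block). In cords of Rorb h2/h2, where the numbers did not pair the animals, *Arc* had an adjusted p of 0.0843 with the replicate block and *Egr1* was called. The causes were not tested. Over single members and settings, 60 values newly passed the threshold, 36 no longer passed it, 0 called values reversed, and 96 uncalled values moved by more than their SE, 19 of them to the other sign.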
